A study of Mus musculus with 18 samples.

Results

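The 8 genes described here code for the enzymes, the transporter and the transcription factor at the centre of glucose output and glycogen storage in the liver: Pck1, G6pc, Fbp1, Pklr, Slc2a2, Gys2, Pygl and Foxo1. They were found by their symbols, 8 of the 54752 genes in the deposited count table, and all 8 passed the filter on low counts. Liver RNA was sequenced from 18 male C57BL/6 mice, 6 in each of 3 groups, with 1 library per mouse, out of 45 mice in the protocol (15 per group). Cirrhosis-PTH mice were injected with 10% carbon tetrachloride (CCl4), a solvent that injures hepatocytes, and were dosed orally once a day with PTH, 0.25 mg per g. PTH stands for the Chinese patent medicine Pien Tze Huang and not for parathyroid hormone. Cirrhosis mice received the same CCl4 injections with water in place of PTH, and Control mice received corn oil injections with water. Injections were 10 µl per g, 2 times a week for 12 weeks, in mice that were 6 weeks old at purchase. No group received corn oil with PTH, so an effect of PTH on an uninjured liver cannot be told from these samples. The protocol states free access to food and water, and gives neither a fast nor the time of day at killing.

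Gluconeogenesis builds glucose from lactate, glycerol and amino acids, and glycogen breakdown releases stored glucose, so that the liver can keep blood glucose up between meals. Glucagon and glucocorticoids raise the transcription of its main enzymes, and insulin lowers it by driving FOXO1 out of the nucleus. After a meal the flow is turned round: glucose enters glycolysis or is laid down as glycogen. In the lobule, gluconeogenic enzymes are strongest in hepatocytes near the portal vein, while the hepatocytes around the central vein carry the cytochrome P450 enzymes that activate CCl4.

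Promoter sequences, from 250 bases before to 50 bases after a transcription start, were taken from RefSeq for build GRCm38.p6. The tables held 8 records for 7 of the 8 genes. The 3 printed here are those of the classic hormone-responsive enzymes Pck1 and G6pc and of the glucose-responsive liver start of Pklr, the promoters on which the hormone and glucose responses of this pathway are best known. Capitals mark motif matches: the cAMP response half-site in Pck1 (chr2:173152823-173153122, plus strand), the insulin response core and a TATA box core in G6pc (chr11:101367466-101367765, plus strand), and a carbohydrate response element and a TATA box core in Pklr (chr3:89136373-89136672, plus strand).
Pck1: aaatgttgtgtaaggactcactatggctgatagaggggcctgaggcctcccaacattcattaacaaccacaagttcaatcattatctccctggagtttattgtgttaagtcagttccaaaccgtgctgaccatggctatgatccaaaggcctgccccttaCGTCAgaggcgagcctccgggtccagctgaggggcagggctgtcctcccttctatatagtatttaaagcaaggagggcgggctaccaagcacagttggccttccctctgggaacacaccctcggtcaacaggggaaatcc
G6pc: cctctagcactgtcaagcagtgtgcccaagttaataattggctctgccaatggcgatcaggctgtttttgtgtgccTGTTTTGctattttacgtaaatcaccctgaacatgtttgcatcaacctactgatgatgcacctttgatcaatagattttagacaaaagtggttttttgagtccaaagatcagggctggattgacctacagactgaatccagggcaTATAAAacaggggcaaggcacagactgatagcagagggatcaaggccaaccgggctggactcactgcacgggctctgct
Pklr: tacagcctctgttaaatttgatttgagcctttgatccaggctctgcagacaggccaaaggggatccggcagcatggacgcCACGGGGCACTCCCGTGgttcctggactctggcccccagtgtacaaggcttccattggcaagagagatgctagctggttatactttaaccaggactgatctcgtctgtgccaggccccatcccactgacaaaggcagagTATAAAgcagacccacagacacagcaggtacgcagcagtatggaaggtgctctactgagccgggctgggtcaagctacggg

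Motifs were searched on both strands as exact letters, and a match is a description and not a shown binding site. In Pck1 and G6pc the capitals CGTCA and TGTTTTG are the reverse complements of the half-site and of the insulin response core. The cAMP half-site TGACG began 90 bases upstream of the Pck1 start and 44 bases upstream of the Pygl start, and 20.8% of all 32851 promoters of this length hold it. The insulin response core CAAAACA lay 174 bases upstream of the G6pc start, and 6.28% of promoters hold it. The TATA box core TATAAA lay 29 bases upstream in G6pc and 31 bases upstream in Pklr, against 13.6% of promoters with a match. The carbohydrate response element, CACGGGG and CCCGTG with any 4 bases between them, lay 170 bases upstream of the Pklr start, and its letters were added to the search after that sequence had been read. That promoter is the 1 promoter in the table with these letters, which is 0.00304% of all. No member's window held the FOXO core GTAAACA or the E-box CACGTG, which occur in 3.65% and 7.15% of promoters. The letters of none of these motifs overlapped in the printed sequences.

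The libraries held 62.5 M to 112.3 M counts, of which loci that collect ribosomal RNA reads took 31.4% to 60.8%, with the highest shares in Control libraries. Each of the 8 genes had at least 1433 counts in every library. Levels are CPM, the counts of a gene per M counts (M for mega), after each library was scaled by TMM (trimmed mean of M values), which centres each comparison on the bulk of genes. Changes are log2 ratios with their standard error (SE) from edgeR's quasi-likelihood test. A gene is said to have risen or fallen where the p-value, adjusted by the Benjamini-Hochberg method over 21914 genes, was under 0.05. Of all genes tested, 50.5% were called in Cirrhosis against Control livers, 25.5% higher and 25.0% lower. Between Cirrhosis-PTH and Cirrhosis livers 38.6% were called, 20.1% higher and 18.6% lower. With unscaled library totals in place of TMM, an alternative chosen after seeing the data, 12934 genes were higher and 1116 lower in Cirrhosis than in Control livers, against 5591 and 5482 with TMM. The median gene then stood at 0.73. For Cirrhosis-PTH against Cirrhosis the totals gave 1506 higher and 6818 lower, against 4396 and 4068, with the median gene at -0.34. Changes below are therefore relative to the bulk of genes, and values with library totals are given beside those that turn. These are bulk samples, so fewer hepatocytes and less RNA per hepatocyte cannot be told apart.

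All 8 genes fell in Cirrhosis livers relative to Control livers with TMM scaling, by 0.57 to 1.48 on the log2 scale, although Pck1 and Fbp1 turned to 0.05 and 0.13 with library totals. Those totals include the ribosomal RNA loci. With totals outside these loci Pck1 and Fbp1 stood at -0.20 and -0.10, and neither passed. The share of all genes called lower in this comparison was 25.0%. With TMM the deepest falls were those of the glucose transporter Slc2a2, the glycogen synthase Gys2 and the glycogen phosphorylase Pygl. G6pc, at -1.21 ± 0.36 (SE), was not set apart from Pygl, at -1.24 ± 0.15. Slc2a2, Gys2 and Pygl fell under all 29 alternative settings tried. In Cirrhosis-PTH livers 6 of the 8 genes rose relative to Cirrhosis livers, against 20.1% of all genes called higher. They were Pck1, Fbp1, Slc2a2, Gys2, Pygl and Foxo1, and Fbp1 did not pass with library totals. G6pc and Pklr did not pass. In Cirrhosis-PTH livers relative to Control livers no member passed the edgeR test, where 8.82% of all genes did (6.34% higher and 2.48% lower). In that comparison 1 member, Pklr, had an unadjusted p under 0.05, as did 23.0% of all genes, and the DESeq2 Wald test called none of the 8. The groups overlapped for every member there, where 3.07% of all genes were higher and 1.40% lower without overlap. The first 2 comparisons share the Cirrhosis libraries and the last shares libraries with both, so their values are not independent of each other.

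**Figure D1:**
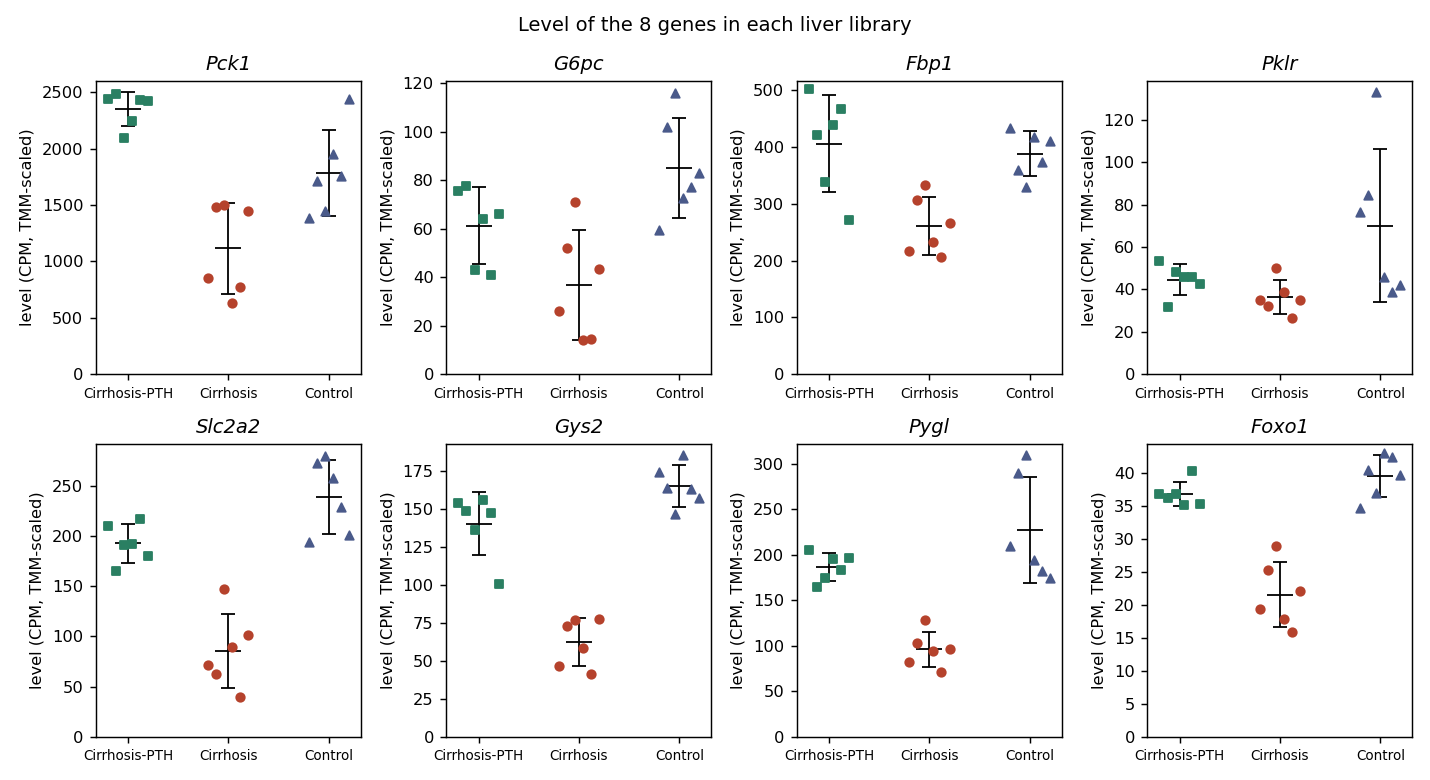
Level of each gene in CPM (vertical axes, from 0) in the 6 Cirrhosis-PTH (squares), 6 Cirrhosis (circles) and 6 Control (triangles) livers, with the mean and SD in black. Points of Slc2a2, Gys2, Pygl and Foxo1 in Cirrhosis livers lie below all points of both other groups, and Pck1 in Cirrhosis-PTH livers lies between 2092 and 2487 CPM.

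Pck1 codes for cytosolic phosphoenolpyruvate carboxykinase, which makes phosphoenolpyruvate from oxaloacetate and commits carbon to glucose (ENSMUSG00000027513, chr2:173153048-173159273, plus strand; all gene positions are GRCm38 with GENCODE M21). Its level was 2092 CPM at the lowest, 2429 at the median and 2487 at the highest in Cirrhosis-PTH livers. Cirrhosis livers ran from 629 CPM through a median of 1151 to 1501, and Control livers from 1387 CPM through 1737 to 2441. Every Cirrhosis-PTH liver was above every Cirrhosis liver, and the Cirrhosis and Control ranges overlapped, with 3 Cirrhosis livers below the lowest Control liver. The Cirrhosis livers formed an upper and a lower set: replicates 2, 3 and 6 held 1451 to 1501 CPM and replicates 1, 4 and 5 held 629 to 850.1 CPM. The change was -0.68 ± 0.19 in Cirrhosis against Control livers (SE, n = 6 each, adjusted p = 0.0057). It was 1.08 ± 0.19 in Cirrhosis-PTH against Cirrhosis livers (adjusted p = 0.00014), a ratio of 2.11. The 2 Control libraries with the highest share of counts at ribosomal RNA loci were replicates 7 and 8. Without them the fall of Pck1 in Cirrhosis livers did not pass (-0.49, adjusted p = 0.059). Over all alternatives the adjusted p of that fall ran from 0.0015 to 0.80.

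Fbp1 codes for the fructose-1,6-bisphosphatase that removes a phosphate on the way from triose to glucose (ENSMUSG00000069805, chr13:62864753-62888282, minus strand). With TMM its fall in Cirrhosis livers was the smallest of the 3 gluconeogenic enzymes, but was not set apart from that of Pck1 (-0.68 ± 0.19). Fbp1 held 271, 429.9 and 501 CPM at the lowest, median and highest Cirrhosis-PTH liver, 207, 250.02 and 332 CPM in Cirrhosis livers, and 330.3, 393 and 434 CPM in Control livers. Of the Cirrhosis livers, 5 of 6 were below every Control liver, and 5 of 6 Cirrhosis-PTH livers were above every Cirrhosis liver. The change was -0.57 ± 0.14 in Cirrhosis against Control livers (adjusted p = 0.0015) and 0.64 ± 0.14 in Cirrhosis-PTH against Cirrhosis livers (adjusted p = 0.00078). Both calls ended with library totals as the scaling, at 0.13 (adjusted p = 0.42) and 0.27 (adjusted p = 0.13). Over all alternatives the adjusted p ran from 0.00040 to 0.52 and from 8.2e-05 to 0.13.

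G6pc codes for the catalytic subunit of glucose-6-phosphatase, which frees glucose in the endoplasmic reticulum (ENSMUSG00000078650, chr11:101367561-101377903, plus strand). In Cirrhosis-PTH livers it ran from 40.9 CPM through a median of 65.1 to 77.7. Cirrhosis livers ran from 13.9 CPM through 34.7 to 71.1, and Control livers from 59.5 CPM through 80.3 to 115.9. Cirrhosis was thus the group with the widest spread, 5.11-fold from the lowest to the highest liver, and 5 of its 6 livers were below every Control liver. The change in Cirrhosis against Control livers was -1.21 ± 0.36 (adjusted p = 0.010). That call was lost with library totals (-0.51, adjusted p = 0.20) and with totals outside the ribosomal RNA loci (-0.73, adjusted p = 0.070), and over all alternatives its adjusted p ran from 0.0016 to 0.20. In Cirrhosis-PTH against Cirrhosis livers it was 0.73 ± 0.36 (adjusted p = 0.12), with an interval of ± 2 SE from 0.02 to 1.45. Without Cirrhosis replicate 3, the highest liver of its group, that change was 1.03 and passed (adjusted p = 0.024), and over all alternatives its adjusted p ran from 0.024 to 0.36.

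Slc2a2 codes for GLUT2, the carrier through which glucose crosses the hepatocyte membrane in both directions (ENSMUSG00000027690, chr3:28697903-28731359, plus strand). Its level was 165 CPM at the lowest, 192 at the median and 217 at the highest in Cirrhosis-PTH livers. Cirrhosis livers held 39.9, 80.7 and 147 CPM, and Control livers 194, 244 and 279.7 CPM. Cirrhosis livers overlapped neither of the other groups, while 4 of 6 Cirrhosis-PTH livers were below every Control liver. The fall in Cirrhosis livers was the largest of the 8, at -1.48 ± 0.22 (adjusted p = 1.6e-05), a ratio of 0.357 to Control livers. It was not set apart from that of Gys2 (-1.41 ± 0.14). Slc2a2 rose by 1.17 ± 0.22 in Cirrhosis-PTH against Cirrhosis livers (adjusted p = 0.00027).

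Pklr codes for the pyruvate kinase of liver and red cells, the last step of glycolysis, which opposes gluconeogenesis and is induced by feeding (ENSMUSG00000041237, chr3:89136142-89146784, plus strand). It ran from 31.9 CPM through a median of 45.8 to 53.1 in Cirrhosis-PTH livers, and from 26.5 CPM through 35.1 to 50.1 in Cirrhosis livers. Control livers ran from 38.8 CPM through 61.3 to 132.9. The Control livers were the most scattered, with replicates 1, 2 and 3 at 76.6 to 132.9 CPM and replicates 6, 7 and 8 at 38.8 to 46.0 CPM. Pklr fell in Cirrhosis against Control livers by 0.95 ± 0.26 on the log2 scale (adjusted p = 0.0061), a call that ended with library totals as the scaling (-0.26, adjusted p = 0.43). In Cirrhosis-PTH against Cirrhosis livers the value was 0.30 ± 0.26 (adjusted p = 0.41, interval -0.22 to 0.82), and it turned to -0.04 with library totals. Of its exon length, 22.0% (711 bases) overlaps Hcn3 on the opposite strand, and the strandedness of the counting is not given in the sources used here. Hcn3 itself averaged 2.31 CPM in Cirrhosis-PTH, 1.19 in Cirrhosis and 5.90 in Control livers, and reads of that stretch cannot be told apart between the pair without strand.

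Gys2 codes for the liver glycogen synthase (ENSMUSG00000030244, chr6:142422613-142473109, minus strand). It held 100.1 CPM at the lowest, 148 at the median and 155 at the highest in Cirrhosis-PTH livers, 41.5, 65.3 and 77.4 CPM in Cirrhosis livers, and 146, 163 and 185 CPM in Control livers. The Cirrhosis livers lay below both other groups without overlap. Gys2 fell by 1.41 ± 0.14 on the log2 scale in Cirrhosis against Control livers (adjusted p = 6.6e-08), the smallest p of the 8 genes. It rose by 1.17 ± 0.14 in Cirrhosis-PTH against Cirrhosis livers (adjusted p = 1.3e-06), a ratio of 2.25.

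Pygl codes for the liver glycogen phosphorylase, which releases glucose units from the same polymer that Gys2 extends (ENSMUSG00000021069, chr12:70190811-70231488, minus strand). Its levels were 165, 189.5 and 205 CPM at the lowest, median and highest Cirrhosis-PTH liver, 71.6, 95.6 and 128 CPM in Cirrhosis livers, and 175, 202 and 310.2 CPM in Control livers. Again no Cirrhosis liver reached either of the other groups. Pygl fell by 1.24 ± 0.15 on the log2 scale in Cirrhosis against Control livers (adjusted p = 5.1e-07) and rose by 0.96 ± 0.14 in Cirrhosis-PTH against Cirrhosis livers (adjusted p = 2.0e-05). The synthase and the phosphorylase thus moved in the same direction: Gys2 counts per 100 Pygl counts were 75.5 ± 13.1 in Cirrhosis-PTH, 64.3 ± 9.10 in Cirrhosis and 76.8 ± 19.98 in Control livers (SD, n = 6 each), with overlapping ranges.

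Foxo1 codes for the forkhead transcription factor that activates Pck1 and G6pc when insulin is low, and insulin signalling controls it mainly through phosphorylation, which RNA counts do not show (ENSMUSG00000044167, chr3:52268336-52353221, plus strand). It held 35.2, 36.5 and 40.3 CPM at the lowest, median and highest Cirrhosis-PTH liver, 15.8, 20.8 and 28.9 CPM in Cirrhosis livers, and 34.8, 40.1 and 43.1 CPM in Control livers. The Cirrhosis livers again stood below both other groups, and the Cirrhosis-PTH and Control ranges nearly coincided. Foxo1 fell by 0.88 ± 0.11 on the log2 scale in Cirrhosis against Control livers (adjusted p = 8.3e-07), though not with library totals (-0.16, adjusted p = 0.29). It rose by 0.77 ± 0.11 in Cirrhosis-PTH against Cirrhosis livers (adjusted p = 7.1e-06).

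In all, Cirrhosis and Control livers did not overlap for 4 of the 8 genes, Slc2a2, Gys2, Pygl and Foxo1, where 14.7% of all genes were lower without overlap. For Pck1 and those same 4 genes, Cirrhosis-PTH livers were above all Cirrhosis livers, where 11.8% of all genes were higher without overlap. The median change of the 8 was -1.08 in Cirrhosis against Control livers (all genes 0.02) and 0.86 in Cirrhosis-PTH against Cirrhosis livers (all genes -0.003). Measured from the median gene of each scaling, the median of the 8 genes was -1.09 to -1.12 in Cirrhosis against Control livers and 0.87 to 0.91 in Cirrhosis-PTH against Cirrhosis livers under 5 scalings. A change of scaling shifts all genes nearly alike, so distances from the median gene, here and in the lists below, could hardly differ between scalings.

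**Figure D2:**
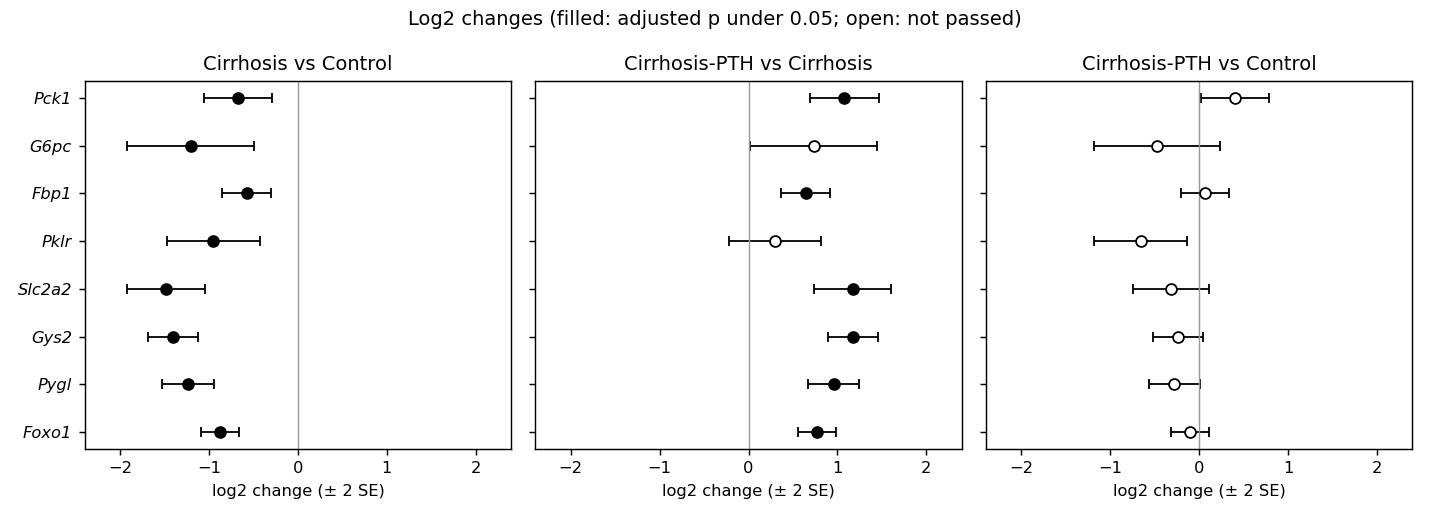
Log2 change of each gene (horizontal axis, ± 2 SE) in Cirrhosis against Control, Cirrhosis-PTH against Cirrhosis and Cirrhosis-PTH against Control livers, with TMM scaling. Filled points have an adjusted p under 0.05, and open points do not: all 8 are filled in the left panel, 6 in the middle and none in the right, while Pck1 and Fbp1 in the left panel, Pklr in the middle one and Slc2a2, Gys2, Pygl and Foxo1 in the right one change sign with library totals as the scaling.

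**Figure D3:**
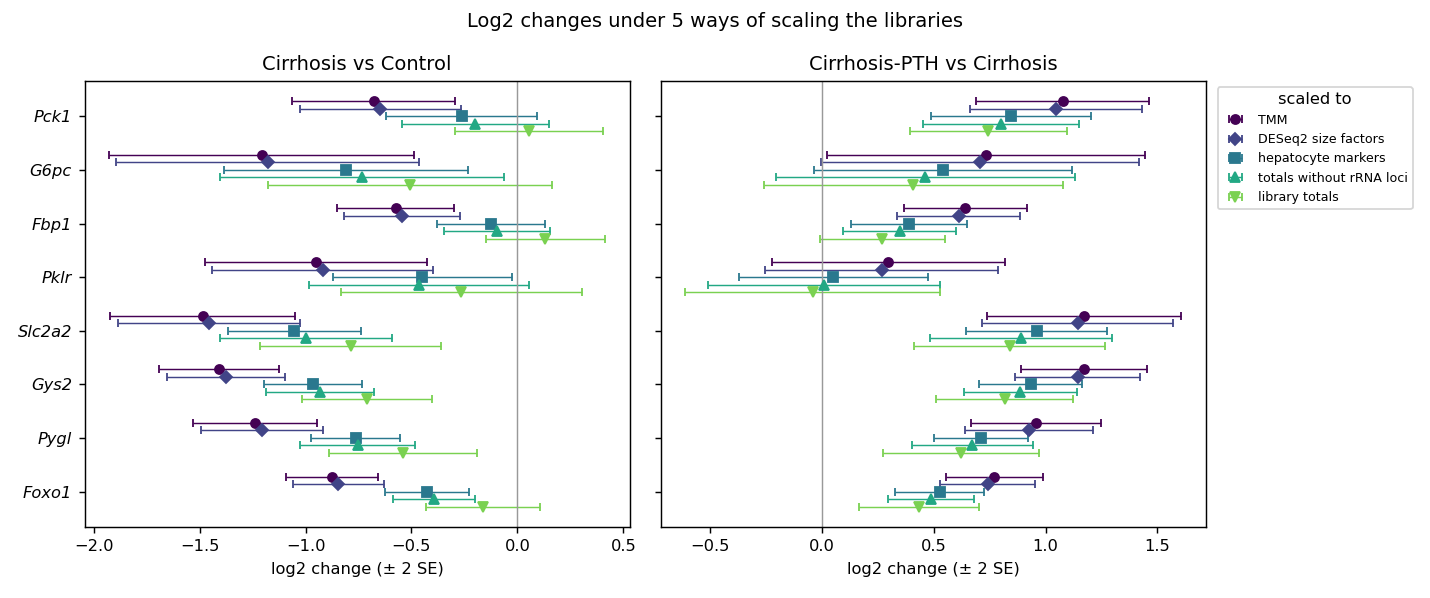
The same log2 changes (horizontal axis, ± 2 SE) under 5 ways of scaling the libraries, for Cirrhosis against Control (left) and Cirrhosis-PTH against Cirrhosis (right). Points shift together with the scaling: in Cirrhosis against Control livers Pck1 lies at -0.68 with TMM and 0.05 with library totals, and Gys2 at -1.41 and -0.71.

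Cirrhosis-PTH and Control livers were then compared directly. With TMM scaling 6 of the 8 values were below 0, and the median of the 8 was -0.26 (all genes 0.006), though 0.10 with library totals (all genes 0.38). The values were -0.65 ± 0.26 for Pklr (adjusted p = 0.14), -0.47 ± 0.35 for G6pc (adjusted p = 0.47) and 0.40 ± 0.19 for Pck1 (adjusted p = 0.22). The intervals of ± 2 SE were -1.18 to -0.13 for Pklr, -1.18 to 0.24 for G6pc and 0.02 to 0.78 for Pck1, so differences of that size remain possible. For Slc2a2, Gys2, Pygl and Foxo1 the values were -0.31, -0.24, -0.28 and -0.11, and all 4 were above 0 with library totals (0.05, 0.11, 0.08 and 0.27). With totals outside the ribosomal RNA loci they were -0.11, -0.05, -0.08 and 0.09. Fbp1 stood at 0.07, with an interval from -0.21 to 0.34, and passed with library totals (0.40, adjusted p = 0.035, against 0.035 to 0.99 over all alternatives). Pck1 passed under 4 of the 29 alternatives, namely in a fit of the 12 libraries of these groups alone (adjusted p = 0.048) and under all 3 scalings chosen after seeing the data (0.58 to 0.80). Its adjusted p ran from 0.0019 to 0.35 over all alternatives. Pklr passed without Control replicates 7 and 8 (-0.90, adjusted p = 0.021), while its value was -0.37 (adjusted p = 0.32) without Control replicate 3, and its adjusted p ran from 0.021 to 0.41.

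The 8 genes varied from mouse to mouse in a partly shared way, most of all among Cirrhosis livers. Cirrhosis replicate 3 was the highest of its group for 7 of the 8 genes, with Gys2 as the exception, where replicate 6 held 77.4 CPM and replicate 3 held 76.7. Replicate 5 was the lowest for 6 of the 8 genes, and replicate 4 for Pck1 and G6pc. The summed level of 11 hepatocyte markers followed the same ends of the order, with 55994 CPM in replicate 3 and 36492 in replicate 5, and its part in the result was not tested. In Cirrhosis-PTH livers the spread was smaller for most of the genes: the coefficient of variation of Pck1 was 6.50% there, against 36.3% in Cirrhosis livers, and that of Slc2a2 was 9.91% against 43.4%. For Fbp1 it was 21.1% in Cirrhosis-PTH and 19.5% in Cirrhosis livers. Among Control livers Pklr and Pygl were both highest in replicates 2 and 3, at 84.4 and 132.9 CPM for Pklr and 289.9 and 310.2 CPM for Pygl. No test of these differences in spread was made.

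**Figure D4:**
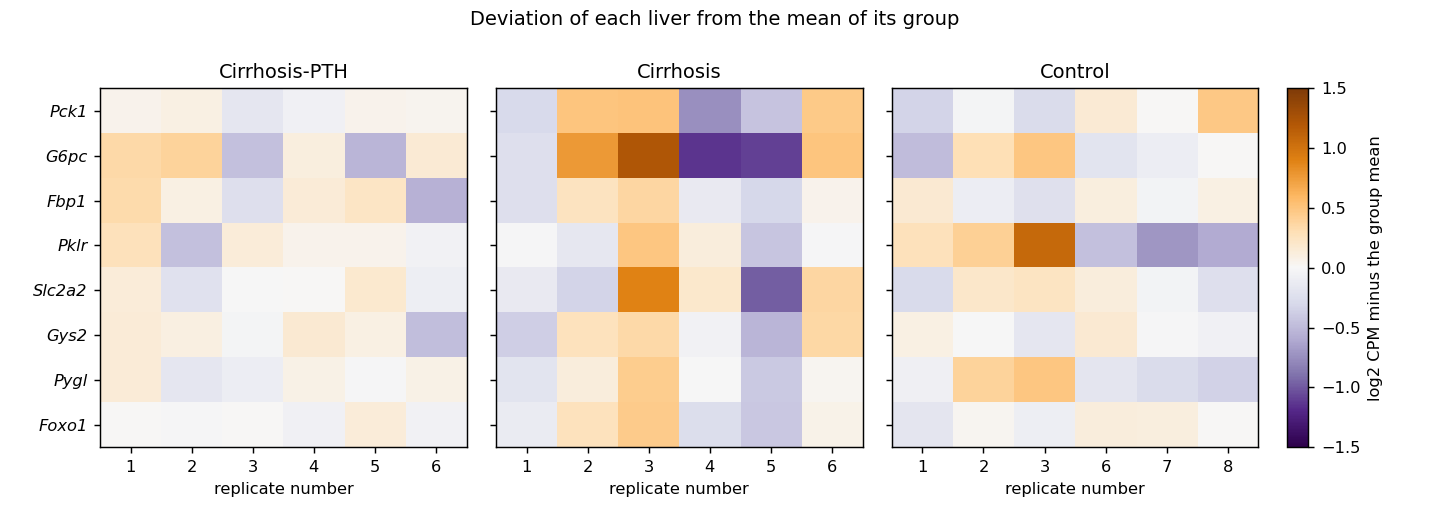
Deviation of each library's log2 CPM from the mean of its group (colour scale, orange above and purple below the mean) for the 8 genes (rows) in the Cirrhosis-PTH, Cirrhosis and Control libraries (columns, by replicate number). Cirrhosis replicate 3 is orange for all genes and replicate 5 purple for all genes, and Pklr in Control replicate 3, at 132.9 CPM, is the strongest orange among Control livers.

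Levels can be set side by side between genes only roughly once divided by exon length, and Pck1 led in every group. The length used was the union of all annotated exons of a gene, which can exceed the transcript made in liver. Pck1 averaged 686 ± 44.6 CPM per kb in Cirrhosis-PTH, 325 ± 118 in Cirrhosis and 520.4 ± 112 in Control livers (SD, n = 6 each). Fbp1 came next, with 239 ± 50.4, 153 ± 29.8 and 228 ± 23.2 CPM per kb in the same groups. Gys2 followed, at 52.7 ± 7.81 CPM per kb in Cirrhosis-PTH, 23.4 ± 5.92 in Cirrhosis and 62.1 ± 5.11 in Control livers. Slc2a2, G6pc and Pygl were lower still, at 25.4 to 33.4 CPM per kb on average in Cirrhosis-PTH, 13.9 to 15.3 in Cirrhosis and 32.9 to 41.5 in Control livers. The ranges of these 3 genes overlapped in each group, so their order among themselves lies within the spread. Pklr averaged 13.8, 11.2 and 21.7 CPM per kb in the same groups, and Foxo1 was the lowest at 4.25, 2.49 and 4.57, without overlap with any other member. In Cirrhosis livers neighbouring levels ran together: Pck1 started at 183 CPM per kb, under the highest Fbp1 value of 195, and the ranges of Slc2a2, G6pc, Pygl and Pklr overlapped, while Gys2, from 15.6 CPM per kb, lay above Pklr. Pygl was placed below Gys2 by its length, 6895 bases against 2657. By CPM alone its mean was the higher, at 187 against 140 in Cirrhosis-PTH livers.

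The liver enzymes of gluconeogenesis and glycogen have counterparts that other tissues or compartments use, and several of these moved the opposite way. Pck2, the mitochondrial phosphoenolpyruvate carboxykinase, rose in Cirrhosis livers to 8.37 ± 1.41 CPM, against 3.26 ± 0.790 in Control livers (SD, n = 6 each; log2 change 1.36 ± 0.16, adjusted p = 4.6e-07). Pygb, the brain-type glycogen phosphorylase, rose to 16.4 ± 4.08 CPM in Cirrhosis livers, against 5.16 ± 1.79 in Control livers (1.68 ± 0.23, adjusted p = 7.4e-06). The muscle forms Pygm (1.29 ± 0.25, adjusted p = 0.00018) and Gys1 (0.47 ± 0.15, adjusted p = 0.013) rose as well. None of the 4 changed sign under the other scalings, but these all moved the median gene up, so a turn below 0 was hardly possible. Pck2 fell in Cirrhosis-PTH against Cirrhosis livers by 0.74 ± 0.16 (adjusted p = 0.00070) and Pygb fell by 1.0099 ± 0.23 (adjusted p = 0.0015) on the log2 scale. Pygm (-0.29 ± 0.24, adjusted p = 0.38) and Gys1 (-0.13 ± 0.15, adjusted p = 0.54) did not pass.

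Ratios within a library do not depend on the scaling. They were chosen after these values had been seen and carry no test. Pck2 counts per 100 Pck1 counts were 0.215 ± 0.0512 in Cirrhosis-PTH, 0.841 ± 0.336 in Cirrhosis and 0.192 ± 0.0730 in Control livers (SD, n = 6 each). The lowest Cirrhosis liver, at 0.521, was above the highest of the other groups, at 0.310 in Cirrhosis-PTH and 0.288 in Control livers. Pygb counts per 100 Pygl counts were 4.39 ± 1.53 in Cirrhosis-PTH, 17.2 ± 3.32 in Cirrhosis and 2.50 ± 1.28 in Control livers, again with Cirrhosis apart from both (14.6 to 22.9 there, and at most 7.28 elsewhere). Gys1 counts per 100 Gys2 counts were 2.36 ± 0.352, 5.89 ± 1.03 and 1.58 ± 0.403 in the same groups, and the Cirrhosis livers, from 4.50 to 7.20, did not overlap the rest. For the last pair, Pygm counts per 100 Pygl counts were 0.889 ± 0.411 in Cirrhosis-PTH, 2.16 ± 0.499 in Cirrhosis and 0.366 ± 0.0780 in Control livers. There the lowest Cirrhosis liver, at 1.51, was below the highest Cirrhosis-PTH liver, at 1.58, and above all Control livers. The liver form still held most of the counts of each pair in every library. Pklr counts per 100 Pck1 counts, glycolytic against gluconeogenic, were 1.91 ± 0.366 in Cirrhosis-PTH, 3.61 ± 1.45 in Cirrhosis and 4.31 ± 2.84 in Control livers, with overlapping ranges. G6pc counts per 100 Pck1 counts were 2.59 ± 0.590, 3.06 ± 1.02 and 4.96 ± 1.72 in the same groups. All Cirrhosis-PTH livers, which reached 3.12 at most, were below all Control livers, whose lowest value was 3.40.

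**Figure D5:**
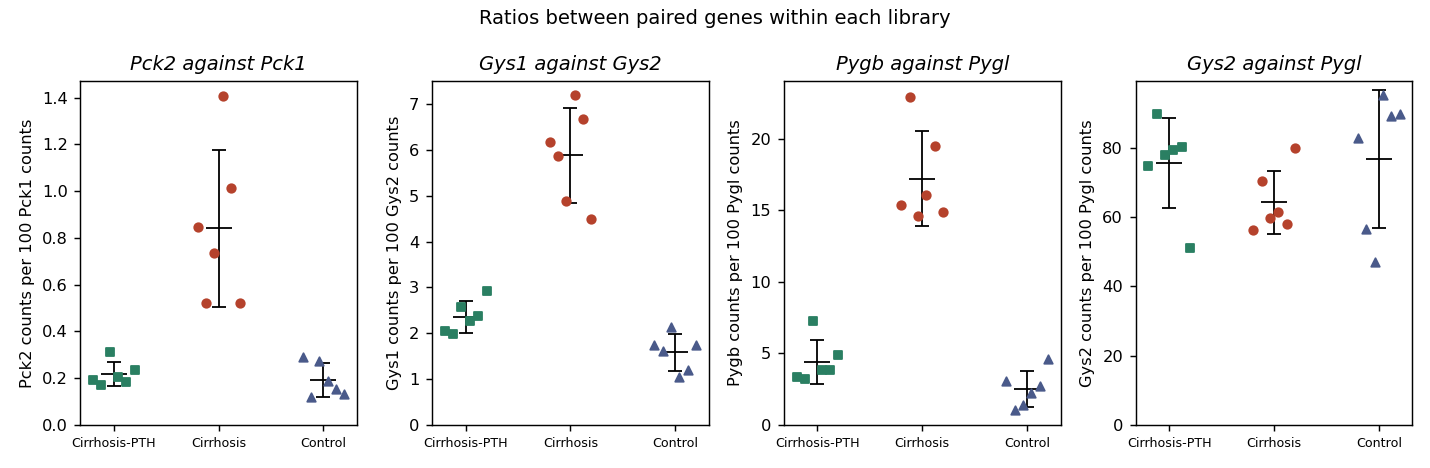
Counts of one gene per 100 counts of its counterpart in each library (vertical axes, from 0) for Pck2 and Pck1, Gys1 and Gys2, Pygb and Pygl, and Gys2 and Pygl, with the mean and SD in black. In the first 3 panels the Cirrhosis livers (circles) lie above all Cirrhosis-PTH (squares) and Control (triangles) livers, and in the last the groups overlap.

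The split of other genes of gluconeogenesis and glucose output depended on the scaling. Of 25 listed, all tested, 4 rose and 15 fell in Cirrhosis against Control livers with TMM, and 12 rose and 2 fell with library totals. Their median was -0.36 with TMM and 0.35 with library totals, and it lay 0.38 to 0.39 below the median of all genes under the 5 scalings. The smallest p-values were those of Mdh1, the cytosolic malate dehydrogenase (-1.11 ± 0.10), Slc25a1, the citrate carrier (-0.74 ± 0.07), and Aqp9, the glycerol channel (-0.83 ± 0.09). Aqp9 held 169 ± 20.9 CPM in Cirrhosis and 301 ± 29.8 CPM in Control livers. Between Cirrhosis-PTH and Cirrhosis livers 14 rose and 3 fell with TMM, and 7 rose and 7 fell with library totals, with a median of 0.26 and of -0.09. Slc25a1 (0.68 ± 0.07), Mdh1 (0.85 ± 0.10) and Slc25a11, the oxoglutarate carrier (0.76 ± 0.10), led the list. Slc37a4, the transporter that feeds glucose-6-phosphate to G6pc, fell in Cirrhosis against Control livers (-0.96 ± 0.26, adjusted p = 0.0056) and rose in Cirrhosis-PTH against Cirrhosis livers (1.14 ± 0.26, adjusted p = 0.0024), and was named after its values were seen. Against Control livers and with TMM, Cirrhosis-PTH livers were higher for Pck2 (0.62 ± 0.16, adjusted p = 0.017) and lower for Aqp9 (-0.30 ± 0.09, adjusted p = 0.033), which turned to 0.08 with library totals. No other gene of the list passed with TMM, while 8 were higher and none lower with library totals, and 5 were higher and none lower with each of the other 2 scalings chosen after seeing the data.

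Among 25 other genes of glycogen metabolism, 6 rose and 12 fell in Cirrhosis against Control livers with TMM, and 11 rose and 1 fell with library totals. The median was -0.34 with TMM and 0.35 with library totals, or 0.36 to 0.39 below that of all genes under the 5 scalings. The phosphoglucomutase genes parted: Pgm2 rose to 14.04 ± 4.81 CPM in Cirrhosis livers, against 2.79 ± 0.455 in Control livers (2.33 ± 0.19, adjusted p = 4.0e-09). Pgm1 fell to 87.0 ± 6.57 CPM in Cirrhosis livers, against 142 ± 8.26 in Control livers (-0.70 ± 0.06, adjusted p = 1.1e-08, but 0.01 with library totals). Epm2a, which codes for the glycogen phosphatase laforin, fell as well (-1.63 ± 0.19). Relative to Cirrhosis livers, 11 rose in Cirrhosis-PTH livers and 3 fell with TMM, and 2 rose and 6 fell with library totals. Pgm1 rose by 0.73 ± 0.06 and Epm2a by 1.45 ± 0.19, while Pgm2 fell by 1.77 ± 0.19 on the log2 scale. Against Control livers, Cirrhosis-PTH livers were higher for Gyg, the glycogenin that primes the polymer (0.65 ± 0.15, adjusted p = 0.0077), and Pygm (1.002 ± 0.25, adjusted p = 0.014). They were lower for Ppp1r3c, a glycogen-targeting subunit of protein phosphatase 1 (-0.71 ± 0.17, adjusted p = 0.013). These were 2 higher and 1 lower with TMM, against 10 higher and none lower with library totals.

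Genes that carry out, promote or restrain the use of glucose, 16 in the list, split 4 up and 9 down in Cirrhosis against Control livers with TMM, and 7 up and 2 down with library totals. Mlxipl, which codes for the glucose-sensing factor ChREBP that binds the carbohydrate response element, fell to 50.7 ± 7.81 CPM in Cirrhosis livers, against 183 ± 25.8 in Control livers (-1.85 ± 0.11, adjusted p = 5.5e-11). It rose by 1.27 ± 0.11 in Cirrhosis-PTH against Cirrhosis livers (adjusted p = 1.5e-08), to 122 ± 11.9 CPM, and stayed below Control livers (-0.58 ± 0.11, adjusted p = 0.0012). Pdk2, a pyruvate dehydrogenase kinase and thus a restraint on glucose use, also fell in Cirrhosis against Control livers (-1.53 ± 0.18). It rose in Cirrhosis-PTH against Cirrhosis livers (1.36 ± 0.18) and, unlike Mlxipl, did not pass between Cirrhosis-PTH and Control livers. G6pdx, the entry enzyme of the pentose phosphate pathway, ran the other way, at 1.48 ± 0.10 and -1.04 ± 0.10. In all, 7 genes of the list rose and 3 fell in Cirrhosis-PTH against Cirrhosis livers with TMM, and 3 rose and 5 fell with library totals. G6pdx was also higher in Cirrhosis-PTH than in Control livers (0.44 ± 0.10, adjusted p = 0.0072). Against Control livers 1 gene of the list was thus higher and 1 lower with TMM, and 5 higher and none lower with library totals.

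The receptors and transcription factors that steer these genes were covered by a list of 35, of which 34 were tested. In Cirrhosis against Control livers 6 rose and 19 fell with TMM, and 18 rose and 4 fell with library totals, with a median of -0.33 and of 0.39. Gcgr, the glucagon receptor, fell to 59.6 ± 6.28 CPM in Cirrhosis livers, against 125 ± 8.19 in Control livers (-1.07 ± 0.08, adjusted p = 4.7e-10). Insr, the insulin receptor, fell to 138 ± 13.5 CPM, against 244 ± 12.7 in Control livers (-0.82 ± 0.07, adjusted p = 5.6e-09). Both receptors, and the hepatocyte factor Cebpa (-1.31 ± 0.12), thus moved in the same direction. In Cirrhosis-PTH against Cirrhosis livers 15 rose and 7 fell with TMM, and 7 rose and 12 fell with library totals. Insr rose by 0.78 ± 0.07 and Gcgr by 0.81 ± 0.08, and Foxo4, another factor of the Foxo1 family, by 0.76 ± 0.07. Against Control livers 6 genes of the list were lower in Cirrhosis-PTH livers with TMM, among them Foxa1 (-0.999 ± 0.19), Creb3l3 (-0.30 ± 0.07), Nr0b2, Gcgr and Irs2. With library totals 9 were higher and 1 lower, and Creb3l3 and Gcgr turned to 0.07 and 0.11.

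Igfbp1, an insulin-like growth factor binding protein that insulin represses and FOXO1 activates, moved against Foxo1. It rose to 234 ± 49.1 CPM in Cirrhosis livers, against 10.2 ± 5.45 in Control livers (4.53 ± 0.36, adjusted p = 2.5e-08). In Cirrhosis-PTH livers it was 11.8 ± 4.89 CPM, a fall of 4.31 ± 0.35 on the log2 scale relative to Cirrhosis livers (adjusted p = 9.2e-08). Igfbp1 counts per 100 Foxo1 counts were 32.0 ± 13.3 in Cirrhosis-PTH, 1136 ± 381 in Cirrhosis and 25.7 ± 13.4 in Control livers, and every Cirrhosis liver, from 708 upward, was above all others.

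Genes that respond to fasting or feeding, 20 in the list, did not move as one set. In Cirrhosis against Control livers 3 rose and 8 fell with TMM, and 7 rose and 1 fell with library totals. Besides Igfbp1, the fasting-induced Pdk4 rose (3.45 ± 0.40, adjusted p = 1.9e-06), with 7.23 to 49.5 CPM in Cirrhosis livers and 1.65 to 3.30 CPM in Control livers. The insulin-induced factor Srebf1 fell (-1.11 ± 0.15, adjusted p = 3.3e-06). Relative to Cirrhosis livers, 9 rose in Cirrhosis-PTH livers and 3 fell with TMM, and 3 rose and 3 fell with library totals, among them Srebf1 (1.19 ± 0.15) and Pdk4 (-2.25 ± 0.38). Between Cirrhosis-PTH and Control livers none of the 20 passed in edgeR, and 5 were higher with library totals. Since neither a fast nor the time of killing is given, the part of feeding state in the values of the 8 genes was not tested.

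Daily clock genes, which also drive the rhythm of gluconeogenic enzymes, moved in both directions. Of 16 clock genes 3 rose and 10 fell in Cirrhosis against Control livers with TMM, and 6 rose and 7 fell with library totals, with a median 0.81 to 0.82 below that of all genes under the 5 scalings. Nr1d1 fell (-1.63 ± 0.12), as did Cry2 (-0.95 ± 0.09), and Arntl rose (1.97 ± 0.19). In Cirrhosis-PTH against Cirrhosis livers 11 rose and 3 fell with TMM, and 8 rose and 5 fell with library totals, led by Tef (1.23 ± 0.11), Cry2 (0.94 ± 0.09) and Nfil3 (-1.24 ± 0.13). Against Control livers, Cirrhosis-PTH livers were lower for Nr1d1 (-0.67 ± 0.12, adjusted p = 0.0013) and higher for Per1 (0.66 ± 0.18, adjusted p = 0.030), the 2 of the list that passed with TMM, while 6 were higher and none lower with library totals. The part of the clock genes in the changes of the 8 was not tested.

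Levels of marker genes of liver cell types are set beside these values, and they do not measure cell numbers. Of 11 hepatocyte markers tested, 8 fell in Cirrhosis against Control livers, and 7 rose and 1 fell in Cirrhosis-PTH against Cirrhosis livers, with TMM. With library totals 2 were higher and 3 lower in Cirrhosis than in Control livers, with a median of 0.20 against -0.52 with TMM, and 2 were higher and 1 lower in Cirrhosis-PTH than in Cirrhosis livers. Their summed level was 51671 to 57616 CPM in Cirrhosis-PTH, 36492 to 55994 in Cirrhosis and 53386 to 69117 in Control livers. The most abundant, Alb and Apob, were at -0.44 ± 0.14 and -0.43 ± 0.11 in Cirrhosis against Control livers, and at 0.25 and 0.29 with library totals. When the libraries were instead scaled to these markers, 5 of the 8 genes still fell in Cirrhosis against Control livers: G6pc (-0.81), Slc2a2 (-1.05), Gys2 (-0.96), Pygl (-0.76) and Foxo1 (-0.43). Pck1 (-0.26), Fbp1 (-0.12) and Pklr (-0.45) did not pass there. Of all 21914 genes, 1978 were called lower in this comparison under the marker scaling. The same 6 genes rose in Cirrhosis-PTH against Cirrhosis livers as with TMM, with 2186 of all genes called higher under the marker scaling. Of the 11 markers themselves, 1 was higher and 3 were lower in Cirrhosis than in Control livers under this scaling. Alb held much of their sum, at 25878 of 45197 CPM on average in Cirrhosis livers.

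Markers of the lobule's zones moved unequally. Periportal markers, among them the urea cycle enzymes Cps1 and Ass1, summed to 7001 to 10246 CPM in Cirrhosis-PTH, 3462 to 6902 in Cirrhosis and 6405 to 9862 in Control livers. In Cirrhosis against Control livers 1 of 14 rose and 8 fell, and in Cirrhosis-PTH against Cirrhosis livers 9 rose and 1 fell, with 5 and 3, then 7 and 3, by library totals. Pericentral markers, led by Cyp2e1 and Glul, summed to 4535 to 5864 CPM in Cirrhosis-PTH, 575 to 1081 in Cirrhosis and 5573 to 8525 in Control livers. There 12 of 14 fell in Cirrhosis against Control livers, with a median of -1.80, and 13 rose in Cirrhosis-PTH against Cirrhosis livers, with a median of 1.55. These medians kept their sign under the 5 scalings, while that of the periportal markers in Cirrhosis against Control livers was -0.67 with TMM and 0.02 with library totals. Their part in the changes of the 8 genes was not tested.

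Markers of several other cell types rose in Cirrhosis livers, where the 8 genes fell. Macrophage markers summed to 287 to 362 CPM in Cirrhosis-PTH, 515 to 928 in Cirrhosis and 215 to 368 in Control livers. Of 12, led by Lyz2 and Cd5l, 9 rose and 2 fell in Cirrhosis against Control livers and 8 fell in Cirrhosis-PTH against Cirrhosis livers. Stellate cell markers, with Dcn and Reln the most abundant, summed to 425 to 946, 1029.9 to 1363 and 286 to 459.9 CPM in the same groups, with 10 of 12 higher in Cirrhosis than in Control livers and 11 of 12 lower in Cirrhosis-PTH than in Cirrhosis livers. Bile duct markers, with Spp1 and Sox9 the most abundant, summed to 35.3 to 94.1, 95.1 to 213 and 28.2 to 55.8 CPM, with 8 of 10 higher and 1 lower in Cirrhosis than in Control livers and 2 lower in Cirrhosis-PTH than in Cirrhosis livers. Endothelial markers (Stab2 and Stab1 the most abundant) summed to 419 to 443, 411 to 500.1 and 382 to 420.1 CPM, with 4 of 10 higher and 1 lower in Cirrhosis than in Control livers with TMM, and 9 higher and none lower with each of the 3 scalings chosen after seeing the data. Lymphocyte markers (Jchain and Cd79b) summed to 8.65 to 19.4, 10.8 to 23.1 and 6.02 to 12.9 CPM, with 5 of 11 higher in Cirrhosis than in Control livers with TMM and 8 with library totals. Red cell markers (Hbb-bs and Hba-a1) summed to 212 to 456, 93.1 to 549.9 and 222 to 646 CPM, and 1 of the 6 tested was lower in Cirrhosis than in Control livers. The part of these cells in the changes of the 8 genes was not tested.

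Pck1, G6pc and Fbp1 are also expressed in the kidney and Slc2a2 in pancreatic islets, and markers of those tissues were near 0. Kidney tubule markers (Lrp2 and Slc12a3 the most abundant) summed to 1.52 to 4.65 CPM in Cirrhosis-PTH, 0.632 to 2.30 in Cirrhosis and 0.771 to 1.52 in Control livers, with Aqp2 and Kap at 0 in every library. Pancreas markers (Cela1 and Cela2a) summed to 1.57 to 3.43, 1.11 to 9.66 and 3.52 to 9.49 CPM in the same groups, with Ins1, Ins2 and Gcg at 0 in every library. Skeletal muscle markers, which matter for Pygm and Gys1, summed to at most 0.334 CPM in Cirrhosis-PTH, 0.0998 to 8.29 in Cirrhosis and 0.237 to 0.793 in Control livers, and Mylpf was the only one of 7 tested. Of 3 kidney markers tested 1 was higher in Cirrhosis-PTH than in Cirrhosis livers, and of 2 pancreas markers 1 was lower in Cirrhosis than in Control livers. Their part in the values of the 8 genes was not tested.

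For each of the 8 genes, the genes of most similar profile were sought among 7185 others by the root mean square difference of centred log2 CPM over the 18 libraries. These libraries share the group structure, so the likeness is a description. The difference grows with a gene's own spread, so it is given beside that of the median gene and ranks no pairs across members. Foxo1 was nearest to Hrg, a plasma glycoprotein of hepatocytes (0.0764 log2 units), and to Agtr1a (0.104), where the median gene differed by 0.447. Gys2 was nearest to Hykk (0.0887) and Deptor (0.139; median gene 0.657), and Pygl to Psen2 (0.127) and Ftcd (0.134; median gene 0.571). Fbp1 was nearest to H1f0 (0.140) and Nfib (0.154; median gene 0.397), and Slc2a2 to the bile acid carrier Slc10a1 (0.178) and to Abat (0.193; median gene 0.758). Pck1 was nearest to Mat1a (0.246) and Slc7a2 (0.248; median gene 0.591), and Pklr to Tmem86b (0.294) and Rtn4ip1 (0.310; median gene 0.557). G6pc was nearest to Tpmt (0.409) and Nlrp12 (0.436; median gene 0.829).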

How the data were processed

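Per the labels' protocols, libraries were made from rRNA-depleted total RNA of 18 livers. The authors deposited 1 table of whole-number counts, with genes in rows and libraries in columns. Build GRCm38 is named in the submitters' processing notes, together with Trim Galore, cutadapt 4.2, StringTie 2.1.5, HISAT2 2.2.1, Bowtie2 and Bowtie 1.3.1, with no role or order. The strandedness of the counting and the annotation release are not given in the sources used here. Totals ran from 62.5 M to 112.3 M counts.

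Of 54752 genes, 18354 had no count, and filterByExpr kept 21914. All libraries entered 1 fit of 3 group means in edgeR 4.0.16 (R 4.3.3, limma 3.58.1) with TMM scaling and a two-sided quasi-likelihood F-test with robust dispersions. P-values were adjusted by the Benjamini-Hochberg method over all genes tested, with 0.05 as the threshold. The SE of a log2 change was derived from the F statistic. Levels in CPM were obtained from the deposited counts and the library sizes after TMM. Levels per kb used the union of all exons of a gene in GENCODE M21, which held 54723 of the genes by identifier. The fit was tested on simulated data. Each library is a separate mouse, per the labels, and p-values judge a difference between groups against the spread between these mice.

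The members and lists were chosen with earlier results of these data known. All 8 genes are named in each comparison. Of each pathway list, the 3 genes past the threshold with the smallest p are named in a comparison, with any gene a count needs; some genes of the lists are not reported here by name. Of each marker list, the 2 most abundant genes are named. Neighbours by profile were sought among genes with an established symbol and a mean log2 CPM of at least 3, and the 2 nearest are named. Of 12 hepatocyte markers listed, 1 symbol, Tf, was not matched in the table.

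Alternatives were DESeq2 size factors, the DESeq2 1.42.0 Wald test, no filter on low counts, fits of 12 libraries, the replicate number as a block, removal of ribosomal RNA loci, thinned counts, Control replicates 7 and 8 left out, and each library left out in turn. Library totals, totals outside the ribosomal RNA loci and hepatocyte markers as scaling were added after seeing the data. Promoter sequences came from RefSeq for GRCm38.p6.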

Additional observations from a re-analysis of the deposited data

Results flagged for a closer look

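A gap test for a stray library was made in 24 groups, the 8 genes in each of the 3 groups of 6 livers, and chance alone flags about 1 in 20. Gys2 in Cirrhosis-PTH replicate 6 stood at 100.1 CPM, below the other 5 livers at 136 to 155 CPM, a gap of 0.647 of the whole range. Foxo1 in Cirrhosis-PTH replicate 5 stood at 40.3 CPM, above the other 5 livers at 35.2 to 36.9 CPM, a gap of 0.675 of the range. The libraries of the other 22 groups lay within the limit of 0.625.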

How the results depend on the processing

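Of the 8 genes, Slc2a2, Gys2 and Pygl fell in Cirrhosis against Control livers under all 29 alternatives, and Pck1, Slc2a2, Gys2, Pygl and Foxo1 rose in Cirrhosis-PTH against Cirrhosis livers under all 29. Leaving out each library in turn kept 8 members lower in Cirrhosis against Control livers and 6 to 7 higher in Cirrhosis-PTH against Cirrhosis livers. Genes lower in Cirrhosis-PTH against Control livers were 334 to 611 in those fits against 543 in all libraries, and the lowest counts came without Control replicate 2 (334), Cirrhosis-PTH replicate 6 (337) and Cirrhosis-PTH replicate 3 (349). Fbp1 in that comparison ran from -0.0029 (without Cirrhosis-PTH replicate 1) to 0.159 in those fits.

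The DESeq2 Wald test called 841 genes lower in Cirrhosis-PTH against Control livers. The fit of 12 libraries called 1 member higher there, Pck1, and the fit without Control replicates 7 and 8 called 1 lower, Pklr. Same-numbered libraries correlated at -0.064 to 0.051 in their deviations from group means. The labels state no pairing by number. Differently numbered libraries were not compared, so these values do not decide whether the numbers pair the mice. With the replicate number as a block, genes lower in Cirrhosis-PTH against Control livers were 245 and members lower there were 1, Pklr (-0.84, adjusted p = 0.025). Under that block Foxo1 there turned to 0.00076, Pck1 in Cirrhosis against Control livers was -0.45 (adjusted p = 0.076) and G6pc in Cirrhosis-PTH against Cirrhosis livers was 0.98 (adjusted p = 0.033).

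The scalings chosen after seeing the data moved most. In Cirrhosis against Control livers, genes higher and lower were 12934 and 1116 with library totals, 11126 and 2036 with totals outside the ribosomal RNA loci, and 10556 and 1978 with hepatocyte markers, and members lower were 3, 4 and 5. Library totals turned Pck1 to 0.0549 and Fbp1 to 0.132 there. In Cirrhosis-PTH against Cirrhosis livers the counts were 1506 and 6818, 2217 and 7576, and 2186 and 6532, and Pklr turned to -0.0405 with library totals. In Cirrhosis-PTH against Control livers, genes higher and lower were 6236 and 146 (6382 in all), 3806 and 212 (4018 in all), and 2659 and 171, and members higher were 2, 1 and 1. There Slc2a2, Gys2, Pygl and Foxo1 turned to 0.0517, 0.109, 0.0828 and 0.2695 with library totals, and Foxo1 to 0.0947 and 0.0996 with the other 2 scalings. The median gene shifted with these scalings by their construction, to 0.73, 0.50 and 0.50 in Cirrhosis against Control livers. The cause of the other moves was not tested. At least 1433 counts lay behind each member's value, so depth sets no floor on these comparisons.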
